A study of Rattus norvegicus with 44 samples.

Results

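The contractile genes of smooth muscle described here are Acta2, Actg2, Tpm1, Tpm2, Cnn1, Tagln, Lmod1, Myh11, Mylk and Des. They were taken by gene symbol from the deposited kidney expression table, where each of the 10 has 1 of the 32883 entries (28906 distinct symbols), and all 10 passed the filter on low values. The table covers kidneys of 44 obese male rats of the ZSF1 strain, which becomes diabetic and loses kidney function, each animal giving 1 RNA-Seq library from snap-frozen kidney. All animals carried a telemetry implant for blood pressure, were 22 weeks old when dosing began, and received their treatment in feed for 6 months. The Vehicle group held 11 animals. The Enalapril group (9 animals) received this angiotensin-converting enzyme inhibitor at 3 mg/kg/day. The Compound 1 group (12 animals) received a stimulator of soluble guanylate cyclase at 1 and later 3 mg/kg/day, and the combination group (12 animals) received the same dose of Enalapril together with 1 mg/kg/day of Compound 1. The dose of Compound 1 thus differed between the groups that received it, all animals shared the obese background, and no lean or untreated rats are analysed here.

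Smooth muscle shortens when calcium and calmodulin activate myosin light chain kinase (Mylk), which phosphorylates the light chains of smooth muscle myosin (Myh11) so that it pulls on filaments of alpha and gamma smooth muscle actin (Acta2, Actg2). Tropomyosins (Tpm1, Tpm2), calponin (Cnn1), transgelin (Tagln) and leiomodin (Lmod1) bind the actin filament, and desmin (Des) forms the intermediate filaments that tie the apparatus together. In the kidney these genes are used by arteries and arterioles, pericytes and mesangial cells and the muscle wall of the pelvis, Acta2 also by myofibroblasts, and Tpm1, Tpm2, Tagln and Mylk by many cells outside muscle. In whole kidney RNA, fewer cells of a type and less RNA per cell cannot be told apart.

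Many genes of this set are known targets of serum response factor, which binds the CArG box, a stretch of A and T between CC and GG. RefSeq promoter windows on build GRCr8, from 250 bases before to 50 bases after the start, were at hand for 7 of the 10 genes, with 1 start per gene. They are shown because the genes were read out as a group, and they play no part in the expression values, which the authors computed on build rn6. The window of Acta2 (chr1:241172454-241172753, minus strand) is printed with CArG-like elements in capitals, and those of Tpm1 (chr8:76543366-76543665, minus strand) and Tpm2 (chr5:62575677-62575976, minus strand), which hold none, are printed beside it:
Acta2: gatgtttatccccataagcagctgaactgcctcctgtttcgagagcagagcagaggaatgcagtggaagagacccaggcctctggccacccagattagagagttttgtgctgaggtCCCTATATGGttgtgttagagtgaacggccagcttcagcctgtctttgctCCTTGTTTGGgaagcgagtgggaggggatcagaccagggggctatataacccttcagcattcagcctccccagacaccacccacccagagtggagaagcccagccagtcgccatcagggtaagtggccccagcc
Tpm1: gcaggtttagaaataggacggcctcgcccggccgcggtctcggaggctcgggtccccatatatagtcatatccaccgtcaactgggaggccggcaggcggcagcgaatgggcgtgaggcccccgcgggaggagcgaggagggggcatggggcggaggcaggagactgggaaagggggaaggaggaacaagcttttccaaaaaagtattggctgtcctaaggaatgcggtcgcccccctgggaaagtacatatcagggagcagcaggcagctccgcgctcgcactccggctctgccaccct
Tpm2: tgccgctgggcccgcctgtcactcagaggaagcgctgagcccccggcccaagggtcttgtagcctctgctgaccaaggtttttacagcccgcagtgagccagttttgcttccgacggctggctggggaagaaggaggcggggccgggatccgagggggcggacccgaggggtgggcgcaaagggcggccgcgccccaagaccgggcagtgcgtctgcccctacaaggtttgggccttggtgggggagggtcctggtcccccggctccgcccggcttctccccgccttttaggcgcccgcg
Over the 6 letters between CC and GG (the pattern is its own reverse complement, so both strands are covered), none of the 7 windows held A or T throughout, against 1.64% of 33469 rat promoters. With at least 5 of the 6 letters A or T, only the Acta2 window matched, at CCCTATATGG (134 bases before the start) and CCTTGTTTGG (84 bases before it), whereas 9.42% of all promoters held such an element and 0.846% held at least 2. These matches describe the letters in a short window and say nothing of the factor. Tagln, Myh11 and Lmod1 had no window, and other starts of the 7 genes were not searched.

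Levels are given as FPKM, fragments scaled to transcript length and to the mapped fragments of the library, a unit that allows levels to be set beside each other between genes. Tpm1 stood highest at 145 ± 39.9 FPKM (mean ± SD over 44 animals), followed by Tagln at 121 ± 30.5, Acta2 at 56.7 ± 12.5 and Tpm2 at 44.4 ± 9.07. Mylk (22.7 ± 2.56) and Des (21.5 ± 3.92) formed the next level, with Mylk above Des in 31 of 44 kidneys. Myh11 lay at 10.1 ± 2.33, and Actg2 (3.75 ± 1.95), Cnn1 (3.60 ± 1.24) and Lmod1 (1.195 ± 0.359) were low. The order between Actg2 and Cnn1 was not settled (Actg2 higher in 24 of 44), while Tagln exceeded Acta2 and Acta2 exceeded Tpm2 in 44 of 44. Near-identical actin genes can share reads, and how the counting divided them is not given in the sources used here, so the split between Acta2, Actg2 and the other actins is uncertain.

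The group means followed a recurring order. In 5 of the 10 genes the mean was highest with Compound 1, then Vehicle, and lower in both groups given Enalapril (Tpm1, Tagln, Acta2, Tpm2 and Des). Myh11, Cnn1 and Mylk ran from Compound 1 through the combination and Vehicle down to Enalapril, and Actg2 and Lmod1 were highest with the combination. Enalapril alone gave the lowest mean for 9 of the 10 genes, the exception being Tpm1, which was lowest with the combination at 114 against 116 FPKM. These orders do not by themselves separate neighbours, and the tests are given gene by gene.

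**Figure D1:**
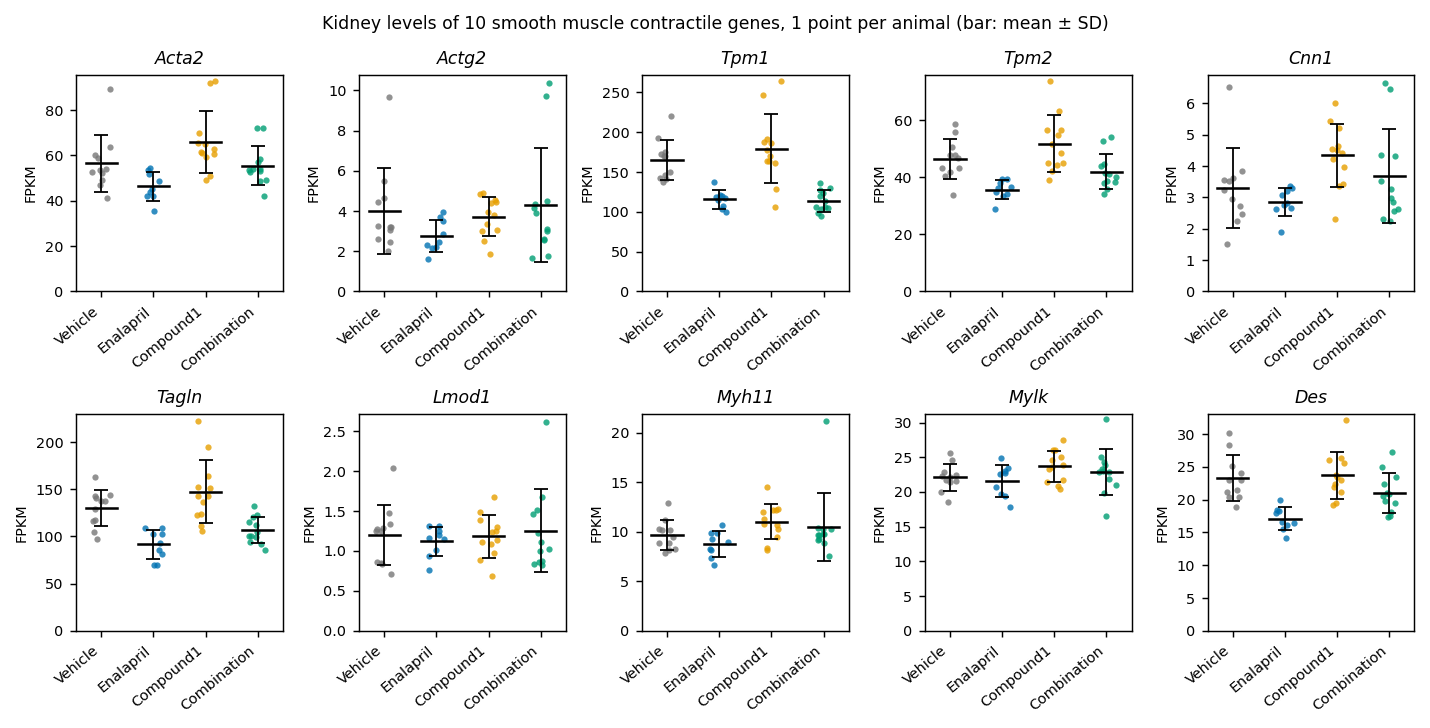
FPKM of the 10 contractile genes (y axis, from 0) in each kidney by treatment group, 1 point per animal, with the group mean as a line and the SD as a bar. The combination animals lie below all Vehicle animals for Tpm1, the Enalapril animals lie low for Tpm1, Tagln, Tpm2 and Des, and single kidneys stand far above their group for Actg2, Cnn1, Lmod1 and Myh11.

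Log2(FPKM + 0.1) was compared with limma, with p values adjusted over all 13482 tested entries by the Benjamini-Hochberg method, and a gene counted as called where that p lay below 0.05 and its fold lay above 1.5 or below 0.66. No member was called against Vehicle under any treatment by limma, where 4.53% of all tested entries were called with Enalapril, 0.2% under Compound 1 and 7.38% in the combination group. At an unadjusted p under 0.05 stood 5 members with Enalapril (42.8% of all entries), 1 under Compound 1 (13.3%) and 2 in the combination group (53.4%). By adjusted p alone, 4 members were lower with Enalapril (26.6% of all entries), none moved with Compound 1 (0.475% in either direction) and 2 were lower with the combination (39.3%). All tested entries together shifted with treatment, by a median log2 difference of -0.15 with Enalapril, -0.07 under Compound 1 and -0.18 in the combination group. The median of the 10 members was -0.32, 0.12 and 0.00 in the same comparisons. After a rescaling of FPKM by the median of ratios, under which all entries have a median near 0, the members' medians were -0.16, 0.20 and 0.18. All 10 differences were negative with Enalapril before rescaling, where 77.9% of all entries were negative, and 6 were negative after it. With Compound 1, 9 were positive before rescaling, where 73.2% of all entries were negative, and 10 were positive after it. The members varied together between kidneys, with a median Pearson r of 0.525 over their pairs. Counts of members, here and below, are therefore not counts of independent observations.

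Among the thin filament genes, the tropomyosin Tpm1, the member with the highest mean level over all animals, was lower by adjusted p alone in both groups given Enalapril. In Vehicle it ran from 138 FPKM through a median of 170 to 220. With Enalapril it ran from 99.9 through 117 to 138, with Compound 1 from 106 through 174 to 264, and with the combination from 94.6 through 110 to 137. All 12 combination kidneys thus lay below the lowest Vehicle kidney, a separation that 0.66% of all entries showed in that direction, and 8 of 9 Enalapril kidneys did so, the other one, 2103, overlapping Vehicle animal 1008 only. The log2 difference from Vehicle was -0.51 (SE 0.08, limma adjusted p = 0.00024) with Enalapril and -0.54 (SE 0.08, adjusted p = 2.3e-05) with the combination, folds of 0.703 and 0.690 that stop short of the fold limit. With Compound 1 it was 0.09 (95% interval -0.15 to 0.33). The combination differed from Enalapril by -0.03 (95% interval -0.23 to 0.18), so neighbours at the lower end of the order were not separated, nor were Compound 1 and Vehicle at the upper end.

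Tagln encodes transgelin, an actin-bundling protein used as an early marker of smooth muscle. Its Vehicle levels ran from 97.7 through a median of 138 to 164 FPKM. They ran from 69.8 through 93.3 to 109 with Enalapril, from 106 through 143 to 222 under Compound 1 and from 85.8 through 103 to 132 in the combination group. All 9 Enalapril and all 12 combination kidneys were below the Vehicle median, with the ranges overlapping. The log2 difference from Vehicle was -0.51 (SE 0.10, adjusted p = 0.00105) with Enalapril, -0.28 (SE 0.08, adjusted p = 0.0072) with the combination and 0.16 (95% interval -0.06 to 0.38) with Compound 1. After rescaling, the combination differed from Vehicle by -0.10 with an adjusted p of 0.32, and with the mean log2 level of inner medulla markers as a covariate by -0.21 with an adjusted p of 0.052. Tpm1 passed by adjusted p in both settings, at -0.36 (adjusted p = 0.00012) and -0.49 (adjusted p = 0.00028). The summed level of the 6 inner medulla markers was itself lowest with Enalapril. It was 145 ± 16.8 FPKM in Vehicle, 128 ± 13.6 with Enalapril, 146 ± 11.5 under Compound 1 and 139 ± 10.9 in the combination group. Aqp2 and Aqp3, with medians of 76.1 and 34.7 FPKM over all kidneys, made up most of that sum. Whether they mark the inner medulla alone was not tested. The covariate, as a mean of log2 levels, gave the 6 markers equal weight. A fit with this covariate can therefore take up part of a treatment difference, and it does not separate sampled region from treatment.

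Tpm2, which encodes beta tropomyosin, ran from 33.6 through a median of 46.7 to 58.7 FPKM in Vehicle. It ran from 28.8 through 36.3 to 39.4 with Enalapril, from 38.9 through 50.1 to 73.7 under Compound 1 and from 34.2 through 40.6 to 54.1 in the combination group. In 10 of 11 Vehicle kidneys Tpm2 exceeded every Enalapril kidney, the remaining one being animal 1008. The log2 difference from Vehicle was -0.37 (SE 0.08, adjusted p = 0.0028) with Enalapril, but after rescaling, which left 9.41% of all entries lower, or with inner medulla markers as a covariate it no longer passed. It was -0.14 (95% interval -0.32 to 0.03) with the combination and 0.15 (95% interval -0.05 to 0.35) with Compound 1.

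Acta2, the alpha smooth muscle actin that also marks myofibroblasts, did not pass against Vehicle. Its Vehicle levels ran from 41.3 through a median of 53.4 to 89.2 FPKM, the top value being animal 1004. With Enalapril they ran from 35.5 through 45.0 to 54.7, with Compound 1 from 49.1 through 62.1 to 92.8 and with the combination from 42.2 through 53.8 to 72.1. The Enalapril difference of -0.27 (95% interval -0.49 to -0.05) had an adjusted p of 0.055 and passed in 5 of the 20 fits that left out 1 animal. With Compound 1 the difference was 0.22 (SE 0.11, adjusted p = 0.38), 10 of 12 kidneys lying above the Vehicle median. The combination differed from Vehicle by -0.01 (95% interval -0.22 to 0.19).

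Actg2, the gamma smooth muscle actin typical of visceral muscle, ranged from 2.02 to 9.68 FPKM in Vehicle (median 3.19), from 1.63 to 3.95 with Enalapril (median 2.46), from 1.88 to 4.91 with Compound 1 (median 3.88) and from 1.64 to 10.3 with the combination (median 3.50). Its spread within groups was the widest of the 10 genes, with a coefficient of variation of 53.8% in Vehicle and 65.8% with the combination, and no comparison passed. The Enalapril difference was -0.44 with a 95% interval from -0.89 to 0.02. Cnn1, the calponin of differentiated smooth muscle, ranged from 1.53 to 6.52 FPKM in Vehicle (median 3.25), from 1.89 to 3.37 with Enalapril (median 2.83), from 2.30 to 6.01 with Compound 1 (median 4.47) and from 2.26 to 6.67 with the combination (median 3.14). With Compound 1, 11 of 12 kidneys had more Cnn1 than the Vehicle median. The difference of 0.43 (95% interval 0.08 to 0.79) did not pass over all entries (adjusted p = 0.29). Lmod1, the leiomodin that starts new actin filaments in smooth muscle, ranged from 0.681 to 2.62 FPKM over all animals, and its 3 differences from Vehicle lay between -0.05 and 0.03.

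Neither the motor nor its kinase passed against Vehicle. Myh11, the heavy chain of smooth muscle myosin, ranged from 7.83 to 12.9 FPKM in Vehicle (median 9.52), from 6.64 to 10.7 with Enalapril (median 8.93), from 8.20 to 14.5 with Compound 1 (median 11.03) and from 7.53 to 21.2 with the combination (median 9.74). The top value came from animal 4002, the next combination kidney reaching 10.3. The differences from Vehicle were -0.13 (95% interval -0.33 to 0.07) with Enalapril, 0.19 (SE 0.09, adjusted p = 0.38) under Compound 1 and 0.09 (95% interval -0.16 to 0.33) in the combination group. Mylk, the kinase, had coefficients of variation from 8.69% to 14.5% within the groups, the narrowest of the members in Vehicle and under Compound 1 but not in the groups given Enalapril. Its group means were 22.1 ± 1.92 FPKM in Vehicle, 21.6 ± 2.28 with Enalapril, 23.7 ± 2.26 under Compound 1 and 22.9 ± 3.31 in the combination group, and all 3 differences from Vehicle fell within -0.17 and 0.22 by their 95% intervals. The scaling matters for both genes. After rescaling, Mylk was 0.22 (SE 0.05, adjusted p = 0.0029) and Myh11 0.26 (SE 0.10, adjusted p = 0.049) above Vehicle with the combination, against 0.04 and 0.09 before it, where 16.9% of all entries were higher by adjusted p alone and 14.8% lower.

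Des, which encodes the intermediate filament desmin and in glomeruli also marks mesangial cells and injured podocytes, ran from 18.8 through a median of 23.0 to 30.2 FPKM in Vehicle. With Enalapril it ran from 14.2 through 16.6 to 19.9, with Compound 1 from 19.2 through 23.2 to 32.2 and with the combination from 17.4 through 20.7 to 27.3. In 8 of 9 Enalapril kidneys Des was below the lowest Vehicle kidney, animal 2103 again being the exception. The log2 difference from Vehicle was -0.44 (SE 0.08, adjusted p = 0.00075) with Enalapril, -0.14 (95% interval -0.32 to 0.03) with the combination and 0.03 (95% interval -0.15 to 0.20) with Compound 1. Combination and Enalapril differed by 0.29 (SE 0.08), with 7 of 12 combination kidneys above every Enalapril kidney, at an adjusted p of 0.18. The test of whether the effect of Enalapril depended on Compound 1 gave an interaction of 0.27 (SE 0.12, p = 0.026, adjusted p = 0.99). Des was the only member with an unadjusted p under 0.05 there (4.29% of all entries), and no member passed, where 0.00742% of all entries passed by adjusted p. Compound 1 was given at 1 mg/kg/day in the combination and at 1 and later 3 mg/kg/day alone. The interaction therefore cannot tell dependence on Compound 1 apart from that difference in dose.

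The widest gap was between Enalapril alone and Compound 1 alone. Tagln was lower with Enalapril by a log2 difference of -0.68 (SE 0.11, adjusted p = 5.1e-05) and Tpm1 by -0.60 (SE 0.10, adjusted p = 0.00013), and these 2 genes were called, where 1.89% of all entries were called lower. For Tpm1 the fold of 0.65997 lay at the limit itself, and the call was lost in 10 of the 44 fits without 1 animal, in which the difference lay between -0.60 and -0.55. By adjusted p alone 6 members were lower (10.9% of all entries), namely Acta2 at -0.49 (adjusted p = 0.0018), Cnn1 at -0.57 (adjusted p = 0.033), Tpm2 at -0.52 (adjusted p = 0.00025) and Des at -0.46 (adjusted p = 0.00031) beside Tagln and Tpm1. The median difference was -0.48 over the members and -0.07 over all entries. In 11 of 12 Compound 1 kidneys Tagln exceeded every Enalapril kidney, and the same count held for Tpm2 and for Cnn1. After rescaling, Tagln (-0.59) and Tpm1 (-0.52) were past the adjusted p and short of the fold limit, and Acta2, Tpm2 and Des also passed by adjusted p alone (7.49% of all entries were lower). With the inner medulla covariate, Tagln (-0.51, adjusted p = 0.022) and Tpm1 (-0.43, adjusted p = 0.046) passed by adjusted p, while Acta2, Cnn1, Tpm2 and Des did not, with adjusted p from 0.059 for Des to 0.76 for Cnn1. All 6 inner medulla markers themselves had negative differences in this comparison, with a median of -0.19.

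The combination and Compound 1 alone differ by the addition of Enalapril and by the dose of Compound 1. Tpm1 was lower with the combination by -0.63 (SE 0.09, adjusted p = 7.9e-05) and was the only member called, where 2.05% of all entries were called lower. Tagln (-0.45, adjusted p = 0.0017) and Tpm2 (-0.29, adjusted p = 0.014) were lower by adjusted p alone (17.4% of all entries). Tpm2 did not pass after rescaling (adjusted p = 0.080) or with the inner medulla covariate (adjusted p = 0.18). Of the combination against Enalapril alone, 9 of 10 differences were positive, where 55.5% of all entries were negative. The median was 0.23 against -0.02 over all entries. No member passed the test, which 0.0519% of all entries did by adjusted p and 0.00742% with the fold limit. Here 1401 entries, or 10.4%, had an unadjusted p under 0.05, among them 4 of the members, Acta2 (0.26), Tagln (0.23), Tpm2 (0.23) and Des (0.29). The comparisons share groups of animals and are not independent of each other.

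**Figure D2:**
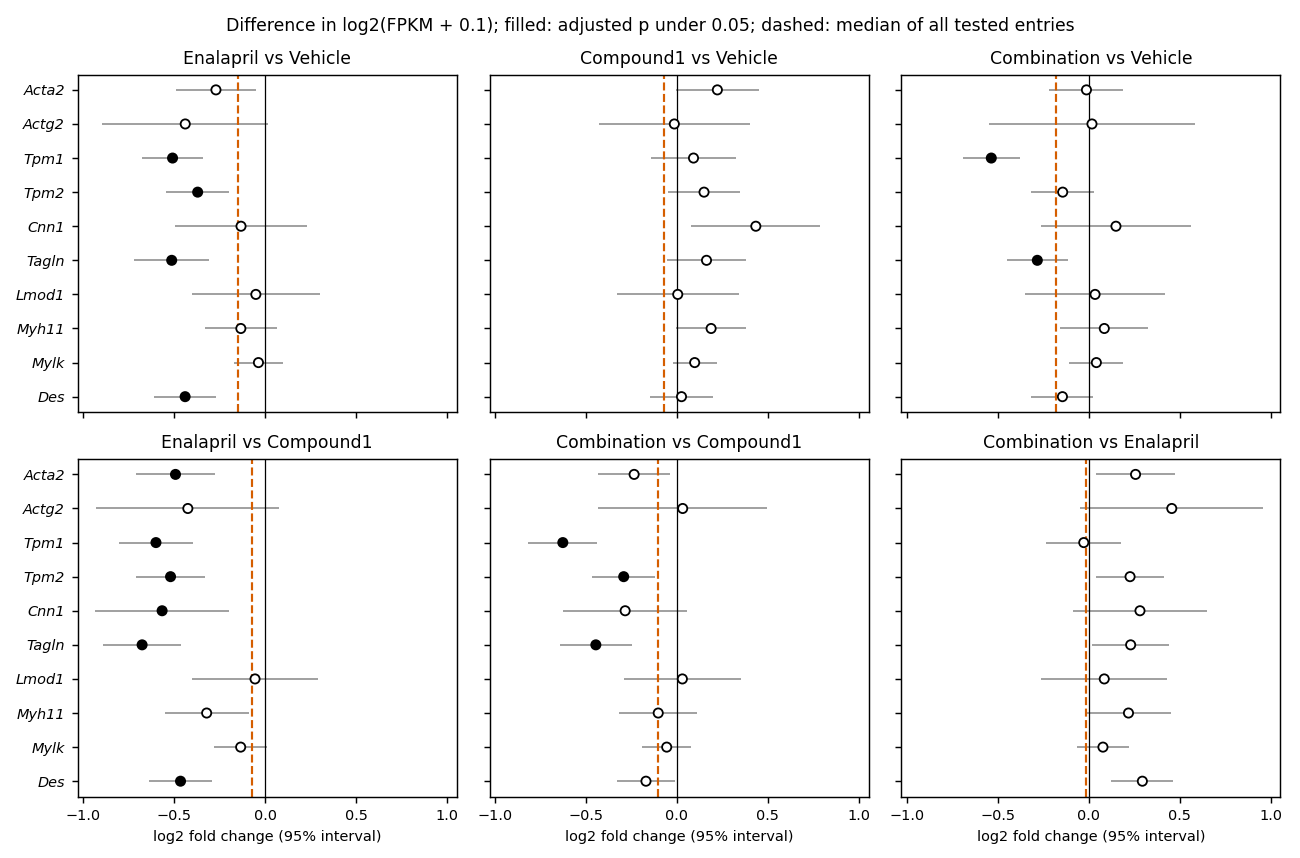
Log2 difference in FPKM + 0.1 (x axis) of the 10 genes (y axis) in 6 comparisons, with 95% intervals from limma. Filled points have an adjusted p under 0.05 over all tested entries, and the dashed line marks the median of all entries (-0.15 for Enalapril against Vehicle); the filled points are Tpm1, Tagln, Tpm2 and Des in that comparison and all lie to the left of the line.

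The effects of each agent averaged over the presence of the other were added after the data were seen. Because the dose of Compound 1 differed between the groups that received it, neither average refers to a single dose of it. Averaged over Compound 1, the kidneys given Enalapril had less Tpm1 (-0.57, adjusted p = 1.7e-07), Tagln (-0.48, adjusted p = 2.1e-06), Tpm2 (-0.33), Des (-0.30) and Acta2 (-0.25, adjusted p = 0.0047) by adjusted p alone, 5 of 10 members where 40.5% of all entries did so. Acta2 did not pass after rescaling (-0.12, adjusted p = 0.18) or with the inner medulla covariate (-0.12, adjusted p = 0.31), while the other 4 did. Averaged over Enalapril, all 10 differences for Compound 1 were positive, where 66.9% of all entries were negative. Their median was 0.19 against -0.04 over all entries, and the members are not independent of each other. None passed by adjusted p (0.808% of all entries were higher), though 6 had an unadjusted p under 0.05 (19.5% of all entries). The nearest was Acta2 at 0.24 (95% interval 0.09 to 0.39, adjusted p = 0.058). After rescaling by the median of ratios, 7 members passed as higher by adjusted p alone, where 2.15% of all entries did. They were Acta2 (0.29, adjusted p = 0.011), Tpm2 (0.23, adjusted p = 0.013), Myh11 (0.25, adjusted p = 0.016), Tagln (0.24, adjusted p = 0.021), Mylk (0.13, adjusted p = 0.025), Des (0.21, adjusted p = 0.028) and Cnn1 (0.40, adjusted p = 0.049). Tpm1 was at 0.08 (adjusted p = 0.46) there, and none of the 7 reached the fold limit. The same 7 passed with sample weights, and none with inner medulla markers as a covariate. With the mean log2 level of urothelium markers as a covariate, Acta2, Cnn1 and Tpm2 passed as higher. Shares of all entries under the weights and the covariates are not given here.

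Beyond the group means, most of the 10 genes varied together from kidney to kidney. Mylk had the lowest median r with the other members but went with Myh11, as given below. With group means removed, all 45 pairs had a positive Pearson correlation over the 44 animals, with a median r of 0.525, and 33 pairs had an adjusted p under 0.05 (permutation within groups, 100000 shuffles, adjusted over 45 pairs). The median r of a member with the 13472 other tested genes lay between 0.088 for Actg2 and 0.284 for Tpm1. It was below the gene's median r with the other members for 9 of the 10, but not for Mylk, at 0.275 with all other genes and 0.161 with the members. After rescaling, the median over the pairs was 0.418 and the range ran from -0.479 to 0.845. Acta2 and Tpm2 were the closest pair (r = 0.865, permutation p = 1e-05, the smallest that these shuffles can give, adjusted p = 4.5e-05, Spearman's coefficient = 0.821, adjusted p = 0.00015). Without the 2 farthest animals their r was 0.879, and within the groups it lay between 0.789 and 0.913.

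Pairs along the same filament were not uniformly close. Tagln went with Tpm1 (r = 0.695, permutation p = 3e-05, adjusted p = 7.5e-05, Spearman's coefficient = 0.595, permutation p = 4e-05, r = 0.588 without the 2 farthest animals), but within the combination group their r was 0.132. Myh11 went with Mylk, its kinase (r = 0.6604, permutation p = 2e-05, adjusted p = 6.9e-05, Spearman's coefficient = 0.589, permutation p = 3e-05, r = 0.520 without the 2 farthest). For Tagln and Mylk the correlation did not pass (r = 0.031, permutation p = 0.84, adjusted p = 0.84, Spearman's coefficient = 0.132, permutation p = 0.41) and an r of -0.479 after rescaling, so the sign of their relation depends on the scaling.

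**Figure D3:**
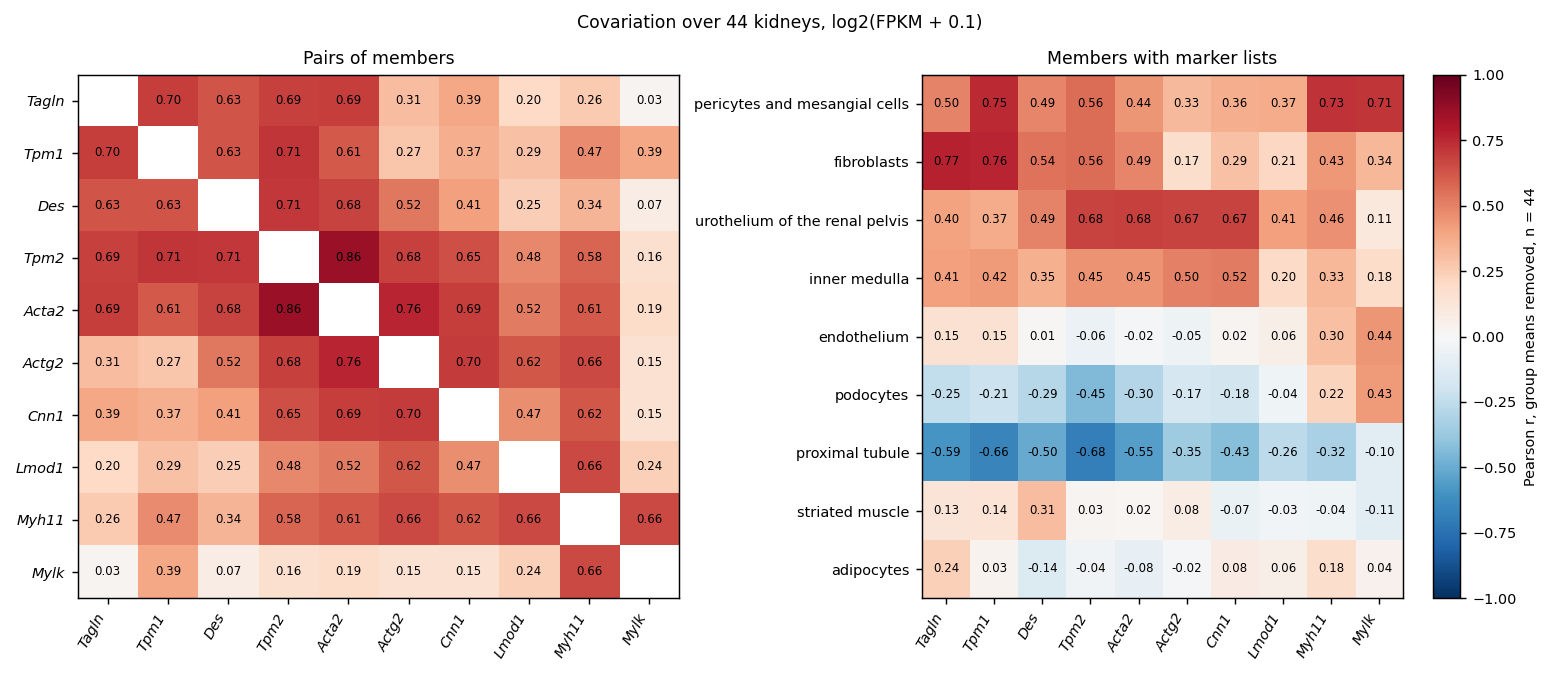
Pearson r over 44 kidneys, with group means removed, between pairs of the contractile genes (left) and between each gene and the mean log2 level of marker lists for other cell types (right). Acta2 with Tpm2 is the closest pair at 0.865, Mylk has the palest row among the members, and Tagln and Tpm1 reach 0.770 and 0.761 with fibroblast markers.

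Single kidneys stood far from their groups. Animal 4002 (combination) had the highest mean deviation of the 10 genes, 1.72 SD above its group, with 10.3 FPKM of Actg2, 6.67 of Cnn1, 2.62 of Lmod1 and 21.2 of Myh11. Animal 1004 (Vehicle) was above its group mean in 10 of 10 genes and held the highest Vehicle level of Acta2, Actg2, Cnn1, Lmod1, Myh11, Mylk and Des. Animal 4007 (combination) resembled these for Actg2 (9.71 FPKM) and Cnn1 (6.45) while its Mylk, at 16.6 FPKM, was the lowest of all kidneys. At the other end, animals 1008 (Vehicle) and 3011 (Compound 1) lay 1.36 and 1.33 SD below their groups, and 1008 had the lowest Vehicle level of Acta2, Actg2, Cnn1, Myh11, Tagln, Tpm1, Tpm2 and Des.

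**Figure D4:**
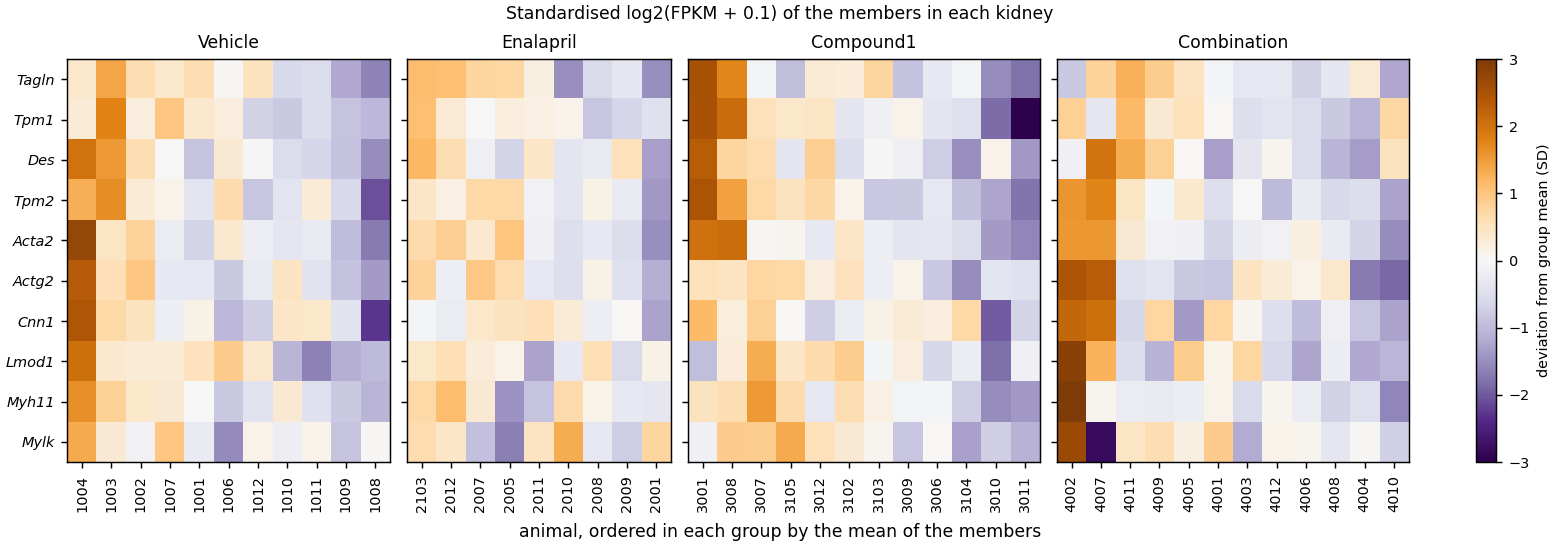
Deviation of each gene (rows) from its group mean, in SD of log2(FPKM + 0.1), for every kidney (columns, ordered in each group by the mean over the 10 genes). Animals 1004 and 4002 are high in Actg2, Cnn1, Lmod1 and Myh11, animals 3001 and 3008 in Tagln and Tpm1, and animal 1008 is low in nearly every row.

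Markers of neighbouring cell types moved with the members. Inner medulla and urothelium markers were entered as covariates, and the part of the other lists in the results was not tested. The mean log2 level of the 5 urothelium markers of the renal pelvis that passed the filter correlated with Acta2 (r = 0.684), Tpm2 (r = 0.678), Cnn1 (r = 0.674) and Actg2 (r = 0.672), each with a permutation p of 1e-05 and an adjusted p of 9.2e-05 over 120 relations with marker lists and library measures. Spearman's coefficient was 0.688, 0.680, 0.591 and 0.606 in the same order, and r without the 2 farthest animals was 0.695, 0.669, 0.591 and 0.613. The summed level of the 8 urothelium markers ran from 6.73 to 34.4 FPKM in Vehicle, 5.03 to 34.7 with Enalapril, 10.3 to 32.8 under Compound 1 and 5.84 to 31.6 in the combination group, and none of the 5 tested markers passed against Vehicle. Uroplakins Upk1a, Upk1b, Upk2 and Upk3a, which define this epithelium, were above 0 in all 44 kidneys, whereas Krt13 was at 0 in 35 and Krt20 in 24. With the urothelium mean as a covariate, a choice made after the data were seen, the log2 difference of Enalapril against Vehicle passed by adjusted p for Acta2 as well as for Tagln, Tpm1, Tpm2 and Des. The share of all entries lower in that fit is not given here.

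**Figure D5:**
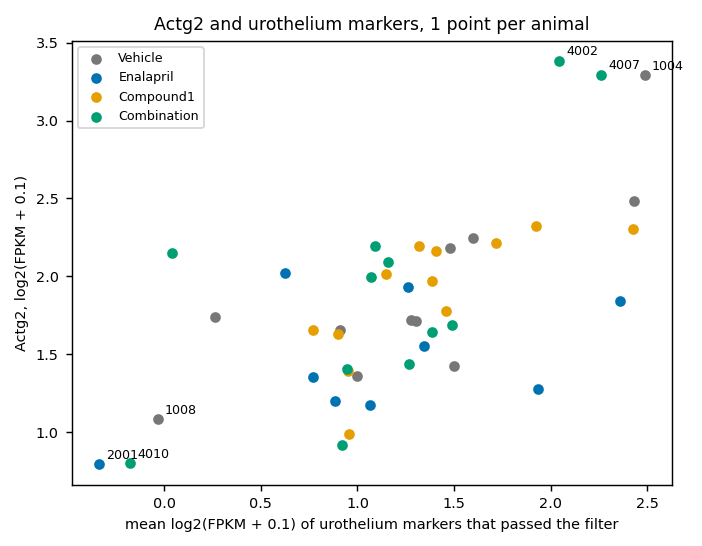
Actg2 (y axis) against the mean of the urothelium markers (x axis), both as log2(FPKM + 0.1), 1 point per kidney coloured by group. Animals 1004, 4002 and 4007 stand apart at the upper right, with Actg2 at 3.29, 3.38 and 3.30, and animals 1008, 2001 and 4010 lie at the lower left.

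Fibroblast markers went with Tagln (r = 0.770, permutation p = 1e-05, Spearman's coefficient = 0.723, r = 0.759 without the 2 farthest animals) and with Tpm1 (r = 0.761, permutation p = 1e-05, Spearman's coefficient = 0.730, r = 0.736 without the 2 farthest), both with an adjusted p of 9.2e-05 over the 120 relations. These are the members with the largest decreases against Vehicle under Enalapril, and 5 of 8 tested fibroblast markers were called lower with Enalapril and 4 with the combination, where 4.53% and 7.38% of all entries were called in either direction. Their summed level over 9 markers was 364.5 ± 73.3 FPKM in Vehicle (range 272 to 491), 242 ± 57.1 under Enalapril (169 to 335), 355 ± 74.3 under Compound 1 (lowest 220) and 250.2 ± 44.7 in the combination group (191 to 324), Fap being at 0 in 5 kidneys. Pericyte and mesangial markers went with Tpm1 (r = 0.745), Myh11 (r = 0.726) and Mylk (r = 0.713), each with a permutation p of 1e-05 and an adjusted p of 9.2e-05, with Spearman's coefficients of 0.722, 0.762 and 0.761 and r without the 2 farthest of 0.687, 0.763 and 0.725. Of these 9 markers, 7 were lower with Enalapril by adjusted p alone (26.6% of all entries), and Kcnj8, a potassium channel subunit of pericytes, was called (-0.61, SE 0.10, adjusted p = 0.00044). Their summed level was 146 ± 16.3 FPKM in Vehicle, 113 ± 13.3 with Enalapril, 153 ± 22.9 under Compound 1 and 127 ± 19.0 in the combination group.

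Proximal tubule markers went the other way, with r of -0.684 for Tpm2 (permutation p = 1e-05, adjusted p = 9.2e-05, Spearman's coefficient = -0.663, r = -0.616 without the 2 farthest) and -0.663 for Tpm1 (permutation p = 4e-05, adjusted p = 0.00034, Spearman's coefficient = -0.570, r = -0.591 without the 2 farthest). Their summed level over 6 markers, which checks the tissue label, ran from 928 to 2675 FPKM over all kidneys. Its mean was 1837 ± 267 in Vehicle, 2332 ± 188 with Enalapril, 1808 ± 328 under Compound 1 and 2350 ± 211 in the combination group. Striated muscle markers stood out in 1 kidney, combination animal 4010, with 49.3 FPKM of Actc1 (next highest 5.51), 15.1 of Ckm (next highest 1.89) and 7.57 of Acta1 (next highest 1.61). In that kidney Acta2, Actg2, Tpm2, Tagln and Myh11 were at the lowest of their group. Tpm1 (127 FPKM) and Des (22.3 FPKM) were the 2 members above their group mean in it, by 0.71 and 0.50 SD.

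Outside the 10 members, the genes whose profile was most like theirs were Ptpn6, a phosphatase of blood and epithelial cells (r = 0.881 with the mean standardised level of the members over 44 animals, group means removed), Capn1, a calcium-dependent protease (r = 0.877), Krt19, a keratin of ducts and urothelium (r = 0.876), Cldn7, a tight junction protein of the distal nephron (r = 0.862), and Sfxn3, a mitochondrial carrier (r = 0.861). The likeness of the members themselves to that mean ran from 0.416 for Mylk to 0.905 for Acta2. Each member is part of that mean, so its r is raised by construction and is not on a level with that of an outside gene. Even so, only Acta2 and Tpm2 (0.892) exceeded Ptpn6.

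The wider apparatus was read from gene lists of the pathway. Myl9, the regulatory light chain, was 63.7 ± 8.85 FPKM in Vehicle and 51.9 ± 6.98 with Enalapril (log2 difference -0.29, adjusted p = 0.014). Of 17 tested genes of dense bodies, focal adhesions and intermediate filaments, none was called against Vehicle and 9 were lower by adjusted p alone both with Enalapril (26.6% of all entries) and with the combination (39.3%). Enalapril and Compound 1 alone differed in Cnn2, a calponin of non-muscle cells (34.0 ± 7.56 against 54.0 ± 11.6 FPKM, -0.67, SE 0.13, adjusted p = 0.00082), and in Vim, the intermediate filament of mesenchymal cells (147 ± 21.0 against 250 ± 60.6 FPKM, -0.75, SE 0.12, adjusted p = 5.4e-05). Vim was also lower with the combination than with Compound 1 (-0.62, SE 0.11, adjusted p = 0.00039).

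Of 10 tested transcriptional regulators of smooth muscle genes, 7 were lower with Enalapril and 6 with the combination by adjusted p alone, beside the 26.6% and 39.3% of all entries. Gata6, a factor of differentiated vascular muscle, was called with the combination, falling from 2.76 ± 0.509 FPKM in Vehicle to 1.70 ± 0.434 (-0.69, SE 0.14, adjusted p = 0.00042). Myocd, the coactivator that gives serum response factor its muscle targets, had a median of 0.131 FPKM, was at 0 in 1 kidney and did not pass the filter. Among 9 tested genes of calcium entry and release and of relaxation by cGMP, 2 were lower with Enalapril and 2 with the combination by adjusted p alone, again beside 26.6% and 39.3% of all entries. Gucy1a1, a subunit of soluble guanylate cyclase, the target of Compound 1, was called with the combination, as were 7.38% of all entries. It stood at 9.91 ± 2.31 FPKM against 15.04 ± 2.96 in Vehicle (-0.60, SE 0.12, limma adjusted p = 0.0005). No gene of this list passed by adjusted p with Compound 1 alone against Vehicle, or between the combination and Enalapril alone. The actins outside smooth muscle included Actb at 1050 ± 298 and Actg1 at 767 ± 100 FPKM in Vehicle, far above Acta2 and Actg2. Calm3, Mrtfb and Prkg1 are not analysed here.

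Libraries were compared once for depth. Since only FPKM were at hand, the depth is unknown in reads, and the ratio of low FPKM values between libraries put the relative depth between 0.625 and 1.44 of the median library, with 16246 to 17958 entries above 0. The share of FPKM from 13 mitochondrial entries was 27.5 ± 5.38% in Vehicle, 32.8 ± 5.90% with Enalapril, 30.2 ± 3.96% under Compound 1 and 32.1 ± 4.84% in the combination group, and it had an r of -0.51 with Tagln (permutation adjusted p = 0.0023) and -0.44 with Tpm1 (permutation adjusted p = 0.0057).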

How the data were processed

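RNA was isolated from snap-frozen kidney of 44 rats, and the authors made TruSeq stranded mRNA libraries. The authors deposited FPKM per gene, on build rn6 per the submitters' processing notes; which aligner and counter they ran is not given in the sources used here. They used raw counts for their own tests, and no count model was applied here because FPKM are not counts. The deposited file has 2 empty columns, which were left out.

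FPKM were converted to log2(FPKM + 0.1) and fitted with limma 3.58.1 (R 4.3.3) with a mean-variance trend, for entries with FPKM above 1 in at least 9 animals. Fold changes on this scale understate those of low genes. Comparisons with Vehicle used the 2 groups compared, and all others the 4 groups. Correlations were computed with Python 3.11.15 and numpy 2.4.6. The scripts were tested on simulated data.

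All 10 members were named, with list genes called in a comparison (at most 4 per list) and the 5 genes most alike; Myl9, Myocd, Actb, Actg1, Actc1, Ckm, Acta1, Fap, Kcnj8, the keratins of the urothelium list and the uroplakins were named after their values were seen. The members and lists were chosen with earlier results of these data known. Alternatives that changed a call with the fold limit or the sign of a difference are given with their effects. Changes by adjusted p alone are given in part. One list of the pathway is not reported here.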

Additional observations from a re-analysis of the deposited data

Results flagged for a closer look

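Cnn1 in Enalapril animal 2001, at 1.89 FPKM, lay far below the 8 other Enalapril kidneys, of which the next lowest had 2.63 FPKM. Its distance from them, relative to the range of the group, exceeded the 95% limit of Dixon's test. Chance flags about 1 group in 20, and the 10 genes were checked in this group of 9 animals only, since the other groups have more than 10. The same kidney was also the lowest of its group for Acta2, Actg2, Tpm2 and Des. Without it, the difference of Cnn1 between Enalapril and Vehicle was not called, as with it.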

How the results depend on the processing

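The absolute depth is unknown, and no member had a fold far past the limit. The limma p values set a difference between group means against the spread between animals. No paired analysis was possible because the animal numbers differ between the groups and none is shared. Of 1023 values of single members under 12 settings, 942 kept direction and side of the threshold, 9 lost a call, 20 gained one and 52 changed sign, none of these at an adjusted p under 0.05. The threshold here is the call with the fold limit, so a change in adjusted p alone counted as kept. Few members were called in the main fits, so most values had no call to lose. Most gains came in the setting that dropped the fold limit. The cause of the other changes was not tested.

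Without the fold limit, the number of members that passed was 4 for Enalapril against Vehicle, 2 for the combination against Vehicle, 3 for the combination against Compound 1, 6 for Enalapril against Compound 1 and 5 for Enalapril averaged over Compound 1. In the same order it was 5, 3, 7, 8 and 7 with sample weights and 3, 1, 2, 2 and 4 with the inner medulla covariate. The share of all entries that passed under these settings is not given here, so the counts cannot be set against it. With a filter of FPKM above 5 in at least 9 animals, 7 members were tested, and Acta2 also passed for Enalapril against Vehicle. Both the inner medulla covariate and rescaling by the median of ratios left 0 members called between the combination and Compound 1 and 0 between Enalapril and Compound 1. With the urothelium covariate these counts were 0 and 1. For Enalapril against Compound 1 the count was 1 with a pseudocount of 1. It was 4 (Acta2, Tagln, Tpm1 and Tpm2) without the 6 animals that come last in the order of samples, where Enalapril averaged over Compound 1 had 1. The 6 were Enalapril animals 2005, 2011 and 2012, Compound 1 animals 3011 and 3103 and combination animal 4005, with none from Vehicle.

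Leaving out 1 animal at a time gave 0 to 1 calls for the combination against Compound 1, 1 to 3 for Enalapril against Compound 1 and 0 to 1 for Enalapril averaged over Compound 1. Tpm1 lost its call between Enalapril and Compound 1 without Enalapril animal 2001 (-0.59), 2007 (-0.60), 2008 (-0.57) or 2009 (-0.58) and without Compound 1 animal 3001 (-0.55), 3007 (-0.59), 3008 (-0.55), 3009 (-0.60), 3012 (-0.59) or 3105 (-0.59). It lost that between the combination and Compound 1 without 3001 (-0.57) or 3008 (-0.58). Cnn1 was called between Enalapril and Compound 1 without 3010 (-0.64), and Tpm1 for Enalapril averaged over Compound 1 without 3011 (-0.60).

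Sign changes under rescaling by the median of ratios were as follows. Enalapril against Vehicle gave Myh11 0.024, Cnn1 0.021, Mylk 0.12 and Lmod1 0.095. Compound 1 against Vehicle gave Actg2 0.058, and the combination against Vehicle gave Acta2 0.16, Tpm2 0.034 and Des 0.033. The combination against Compound 1 gave Myh11 0.00015 and Mylk 0.047, and Enalapril against Compound 1 gave Lmod1 0.023. The interaction was -0.020 for Acta2 and -0.024 for Myh11. Enalapril averaged over Compound 1 gave Myh11 0.012, Mylk 0.084 and Lmod1 0.11.

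With the inner medulla covariate, Enalapril against Vehicle gave Cnn1 0.17 and Mylk 0.011, Compound 1 against Vehicle gave Lmod1 -0.025, the combination against Vehicle gave Acta2 0.075, and Enalapril against Compound 1 gave Lmod1 0.068 and Actg2 0.073. Enalapril averaged over Compound 1 then gave Cnn1 0.063, Lmod1 0.080 and Actg2 0.16, and Compound 1 averaged over Enalapril gave Tpm1 -0.013. With the urothelium covariate, added after the data were seen, Lmod1 was -0.017 for Compound 1 against Vehicle, 0.0051 for Enalapril against Compound 1 and 0.039 for Enalapril averaged over Compound 1, and Acta2 was 0.035 for the combination against Vehicle. With a pseudocount of 1, Lmod1 was -0.0023 for Compound 1 against Vehicle.

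With sample weights, Lmod1 was 0.071 for Enalapril against Vehicle, -0.047 for the combination against Enalapril and -0.17 for the combination against Compound 1. Actg2 was 0.077 for Compound 1 against Vehicle, -0.079 for the combination against Vehicle and -0.16 for the combination against Compound 1, and Acta2 was 0.00076 for the combination against Vehicle. The interaction was -0.094 for Acta2, -0.033 for Tagln, -0.12 for Myh11, -0.057 for Tpm2 and -0.24 for Lmod1.

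Without the 6 animals that come last in the order of samples, Actg2 was 0.022 for Compound 1 against Vehicle. Lmod1 was -0.0080 for the combination against Compound 1 and the interaction of Myh11 was -0.051. Without animals 2103 and 3102 to 3105, Compound 1 against Vehicle gave Lmod1 -0.045 and Actg2 0.021, the combination gave Tpm1 0.0051 against Enalapril and Actg2 -0.0036 against Compound 1, the interaction of Mylk was 0.0023, and Lmod1 was 0.0048 for Enalapril averaged over Compound 1.

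Leaving out 1 animal changed the sign of 19 small differences. Lmod1 ranged from -0.11 to 0.027 for Enalapril, -0.057 to 0.082 for Compound 1 and -0.064 to 0.11 for the combination against Vehicle. It ranged from -0.014 to 0.13 for the combination against Enalapril, -0.069 to 0.075 for the combination against Compound 1, -0.12 to 0.0057 for Enalapril against Compound 1, -0.018 to 0.14 in the interaction, -0.060 to 0.029 for Enalapril averaged and -0.0046 to 0.084 for Compound 1 averaged. Against Vehicle, Actg2 ranged from -0.096 to 0.12 for Compound 1 and -0.12 to 0.16 for the combination, Des from -0.016 to 0.064 for Compound 1, Acta2 from -0.055 to 0.056 and Myh11 from -0.011 to 0.13 for the combination. Tpm1 ranged from -0.053 to 0.0051 for the combination against Enalapril, and Actg2 from -0.10 to 0.13 for the combination against Compound 1. The interaction ranged from -0.034 to 0.082 for Acta2, -0.066 to 0.069 for Myh11 and -0.059 to 0.021 for Mylk.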
